A study of Homo sapiens with 4 samples.

Results

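HEK293 cells, an adherent human embryonic kidney line, were profiled on 4 expression arrays, and the arrays carrying replicate number 2 are compared here with those carrying replicate number 1. Each number holds 2 arrays, 1 from untreated cells and 1 from cells given lysophosphatidic acid (LPA, a lipid mediator found in serum) at 1 µM for 2 h. The members are therefore all 4 arrays of the series, chosen by the replicate number in their labels. All groups share the same line, growth in medium with 10% fetal bovine serum, an overnight period without serum, and Trizol extraction of total RNA. The treatment of the untreated cells is given as none, and the labels do not explain the letters Vc in their titles. The labels also do not say whether a number stands for a culture, a day or an RNA preparation, nor that the arrays came from separate cultures. The p-values below therefore reflect the variation among 4 arrays, and that variation could be technical alone. Culture state and RNA preparation cannot be told apart as sources of a difference between the numbers.

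Signal is a linear intensity, which a scaling step before deposit had set to the same trimmed mean of 500.08 on every array. Differences are log2(signal + 1) of number 2 minus number 1, averaged over the 2 treatments, with the standard error (SE) of the limma fit that holds treatment as a block. Genes with a Benjamini-Hochberg adjusted p under 0.05 over all 11865 genes tested are referred to as called. LPA replicate 2 stood apart from the other arrays, with a maximum signal of 62508 against 93776 to 104010. Its ACTB probe sets gave a 3′-to-5′ ratio of 18.8 against 12.6 to 13.6, which moves with RNA integrity and labelling. The same ratio for GAPDH was 1.38 on that array, near the 1.35 of LPA replicate 1. It was 1.25 and 1.22 on untreated replicates 1 and 2. Bacterial poly(A) transcripts, which are added to a sample before labelling, were higher on the number 2 arrays for 23 of 24 probe sets (median log2 difference 0.32, from -0.29 to 0.56). Hybridisation controls, added after labelling, were higher for 10 of 18 (median 0.0080). The part of either set of controls in the differences below was not tested.

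Cells that meet low oxygen stabilise the HIF transcription factors, which bind the core sequence ACGTG or GCGTG and induce genes for glucose uptake, lactate production, mitophagy, angiogenesis and growth restraint. Shortage of amino acids and other stresses activate kinases that phosphorylate eIF2, which slows translation and raises ATF4. This integrated stress response switches on genes for amino acid synthesis and transport, with CHAC1, TRIB3 and DDIT3 among its known targets. TXNIP and ARRDC4 are induced by the glucose-sensing factor MondoA (MLXIP) with its partner MLX and encode arrestin-like proteins that restrain glucose uptake. Dense or nutrient-poor cultures are common settings in which these programmes are studied in cell lines, and no value here measured oxygen, density or medium.

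The genes that mark the difference were DDIT4, HILPDA, ANKRD37, CHAC1 and TXNIP, and the 250 bases before the transcription start are shown for those present in the RefSeq promoter table, because each carries a sequence known from 1 of these pathways. The build is GRCh38.p14, and the sequences run 5′ to 3′ on the strand of the gene. Capitals mark ACGTG and GCGTG (the core of the hypoxia response element), CACGTG (an E-box, which contains ACGTG on both strands), TGATGNAA (the element bound by ATF4 with C/EBP proteins) and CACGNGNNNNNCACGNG (the carbohydrate response element of MondoA and MLX), on either strand. The windows are chr10:72273674-72273923 (+) for DDIT4, chr4:185396591-185396840 (+) for ANKRD37, chr15:40953221-40953470 (+) for CHAC1 and chr1:145996580-145996829 (-) for TXNIP. The table holds another TXNIP start, whose window is not shown and held 1 ACGTG.
DDIT4: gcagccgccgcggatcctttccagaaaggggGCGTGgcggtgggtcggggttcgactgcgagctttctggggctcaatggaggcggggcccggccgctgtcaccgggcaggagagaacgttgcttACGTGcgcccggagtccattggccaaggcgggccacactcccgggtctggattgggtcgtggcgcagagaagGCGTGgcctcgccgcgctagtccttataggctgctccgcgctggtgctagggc
ANKRD37: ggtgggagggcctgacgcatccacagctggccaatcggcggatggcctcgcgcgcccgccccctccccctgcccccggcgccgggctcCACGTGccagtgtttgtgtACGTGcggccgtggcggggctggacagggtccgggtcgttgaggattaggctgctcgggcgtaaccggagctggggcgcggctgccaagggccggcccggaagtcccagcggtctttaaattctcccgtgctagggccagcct
CHAC1: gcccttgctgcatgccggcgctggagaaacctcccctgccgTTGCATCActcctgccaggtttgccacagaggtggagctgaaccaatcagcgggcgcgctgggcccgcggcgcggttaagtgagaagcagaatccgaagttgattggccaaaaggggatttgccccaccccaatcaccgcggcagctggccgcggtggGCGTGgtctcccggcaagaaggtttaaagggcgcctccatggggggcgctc
TXNIP: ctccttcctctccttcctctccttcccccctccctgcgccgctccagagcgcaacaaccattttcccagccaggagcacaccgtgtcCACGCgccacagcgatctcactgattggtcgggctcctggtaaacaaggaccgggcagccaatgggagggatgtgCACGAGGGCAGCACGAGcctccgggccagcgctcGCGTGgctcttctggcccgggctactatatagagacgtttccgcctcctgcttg

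The DDIT4 window held 1 ACGTG and 2 GCGTG. In ANKRD37 an E-box and a further ACGTG lay close together. CHAC1 held 1 TGATGNAA, read on the opposite strand as TTGCATCA, and 1 GCGTG, while TXNIP held 1 carbohydrate response element and 2 GCGTG. Such short matches are common. ACGTG was present in 18.5% of 35116 promoter windows of this length and in 22.3% of the 14253 windows of genes tested. GCGTG was present in 32.2% and 43.9%, TGATGNAA in 3.14% and 1.68%, CACGTG in 6.34% and 8.38%, and the carbohydrate response element in 0.0456% and 0.0842%. A match describes letters in a window and shows no binding.

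DDIT4, a stress-induced inhibitor of the growth kinase complex mTORC1, had signals of 1767 (untreated) and 1565 (LPA) in number 1 and of 4609.65 and 5427 in number 2. Both number 2 arrays were well above both number 1 arrays, with no overlap, and the difference was 1.59 ± 0.12 (SE, 2 arrays per number), a 3.01-fold level (limma adjusted p = 1.71e-10). HILPDA, a lipid droplet protein induced by hypoxia that blocks breakdown of stored fat, read 1063 and 1053 against 2908 and 3374, again with a clear gap between the numbers. Its difference was 1.56 ± 0.12 (limma adjusted p = 2.53e-10), and a second probe set gave 1.91. ANKRD37, a small ankyrin repeat protein and direct HIF target, read 351.4 and 316 in number 1 and 1144 and 1016 in number 2. The difference of 1.69 ± 0.19 (limma adjusted p = 3.39e-07) was nearly the same in untreated cells (1.70) and after LPA (1.68). A dimmer ANKRD37 probe set, below the filter on low signals, gave -0.47.

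CHAC1, an enzyme that degrades glutathione, was dim in number 1 (122 untreated, 78.0 after LPA) and read 393 and 402 in number 2. Its difference of 2.01 ± 0.35 was the widest of the marker genes, with 1.67 between the untreated arrays and 2.35 between the LPA arrays (limma adjusted p = 2.20e-04). TXNIP, the thioredoxin-binding arrestin that lowers glucose uptake, read 189 and 187 against 522 and 598. The TXNIP signals were nearly equal within a number and separate between numbers (difference 1.57 ± 0.26, limma adjusted p = 1.65e-04), and its other probe sets gave 0.863 and 1.498. In the plot of the marker genes on each array the treatment moves the points far less than the replicate number does. The marker genes were chosen with earlier results of these data known. Their separation and p-values are therefore descriptions and not independent evidence.

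Each marker gene kept its direction under every alternative analysis in which it was tested. CHAC1 and TXNIP were too dim for the filter at the 60th percentile and were not tested there. DDIT4, HILPDA and CHAC1 lost the call in 1 setting each, without the intensity trend in the variance, where the limma adjusted p was 0.296. ANKRD37 and TXNIP also lost it when all probe sets of a gene were averaged (0.61, limma adjusted p = 0.655, and 1.31, limma adjusted p = 0.0843). Leaving out LPA replicate 2, the array that stood apart, left differences of 1.47 for DDIT4, 1.46 for HILPDA, 1.78 for ANKRD37, 2.00 for CHAC1 and 1.47 for TXNIP, all called.

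**Figure D1:**
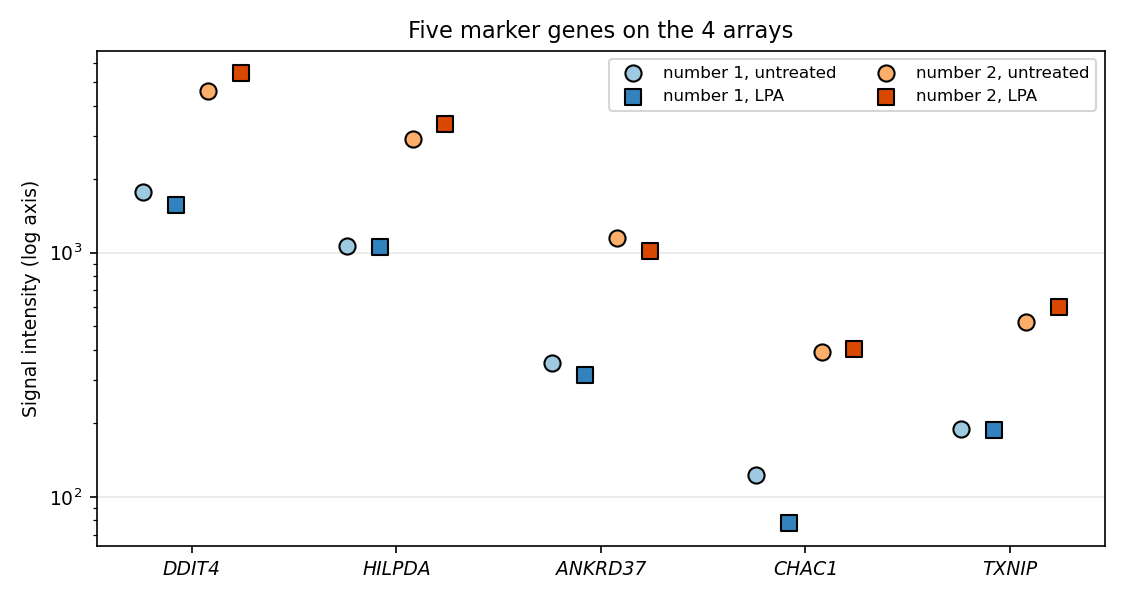
Signal intensity (log axis) of DDIT4, HILPDA, ANKRD37, CHAC1 and TXNIP on each of the 4 arrays, with 1 point per array, coloured by replicate number and shaped by treatment. For every gene both number 2 points lie above both number 1 points, with CHAC1 at 78.0 to 122 in number 1 and 393 to 402 in number 2.

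Across all genes, 1382 of 11865 (11.6%) were called, 687 higher (5.79%) and 695 lower (5.86%) in number 2, and 2809 had an unadjusted limma p under 0.05. Of the called genes, 1375 had the same direction in untreated cells and after LPA. Both number 2 arrays lay above both number 1 arrays for 3140 genes (26.5%) and below them for 2857 (24.1%). Called genes differed by a median of 0.55 on the log2 scale where higher and 0.58 where lower, and 71 and 62 of them differed at least 2-fold. They were brighter than most: the median signal was 1307 for those higher and 1455 for those lower, against 753 for all genes tested. Where a called gene had other probe sets above the filter on low signals, 1086 of 1378 (78.8%) had the same sign, compared with 61.1% of 8574 for genes not called.

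That count rested on the variance model and on each array. With an eBayes fit that has no intensity trend it was 0, with 1822 genes at an unadjusted limma p under 0.05, and with all probe sets of a gene averaged it was 168. Without the treatment block it was 445. It was 39 and 631 without untreated replicate 1 or 2, and 377 and 360 without LPA replicate 1 or 2, and these fits with 3 arrays have no treatment block. Centring each array on its median shifted the median of all genes from 0.014 to -0.058 and gave 395 higher and 975 lower genes. LPA against untreated arrays gave 32 called genes with the replicate number as a block, where the replicate comparison with its block gave 1382. Without a block these counts were 0 (0.0%, with 207 at an unadjusted limma p under 0.05) and 445.

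Of the summed variation of the genes tested over the 4 arrays, the replicate number carried 48.03%, treatment 27.4% and their interaction 24.57%. In the brighter genes (5933 of 11865) the share of the number was 61.74%. The untreated and LPA arrays give separate measurements of the difference between numbers, with no array in common. Across genes, which are not independent replicates, these differences had Pearson's r = 0.33 and Spearman's rho = 0.39 (11865 genes) and the same sign in 64.8%. They had r = 0.60 among these brighter genes and 0.25 among the 5932 dimmer ones.

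**Figure D2:**
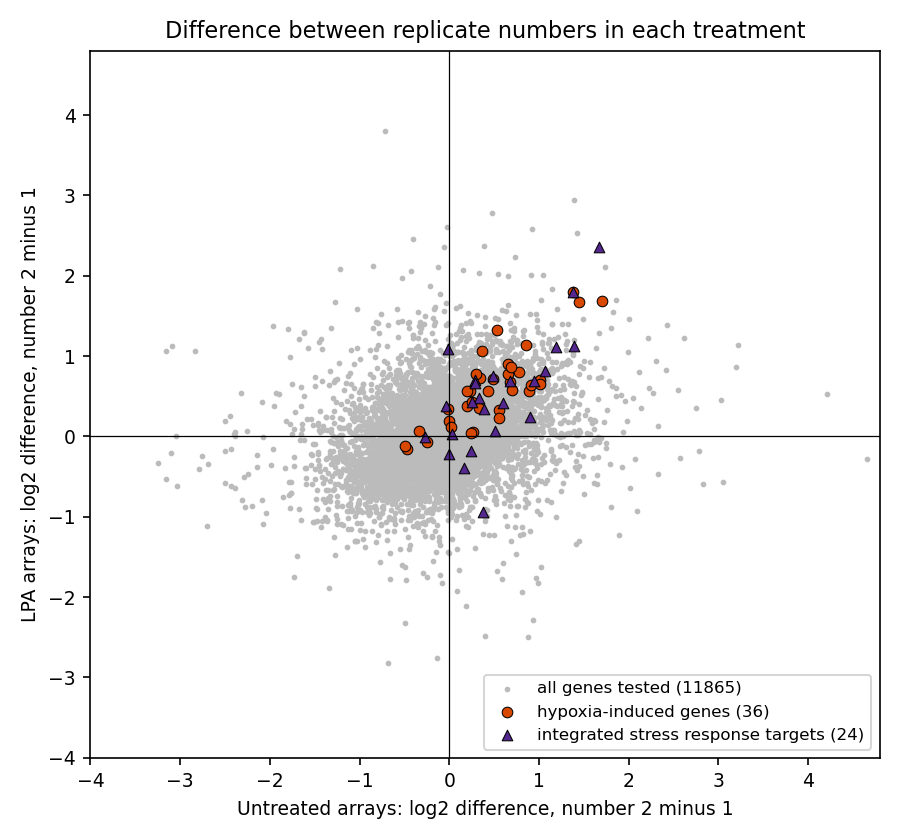
Log2 difference between number 2 and number 1 in untreated cells (horizontal axis) and after LPA (vertical axis), 1 point per gene, for 11865 genes tested in grey, 36 hypoxia-induced genes as circles and 24 integrated stress response targets as triangles. Most genes of both lists lie in the upper right, higher in number 2 under both treatments, with CHAC1 at 1.67 and 2.35.

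Genes induced by hypoxia were higher in number 2 as a group. Of 42 genes listed, 36 were tested and 2 lay below the filter on low signals. Of the 36, 22 were called higher and 0 lower, 28 had both number 2 arrays above both number 1 arrays, and 4 had a negative difference. Over all genes 5.79% were called higher, 26.5% had no overlap in that direction and 5751 of 11865 had a negative difference. The median difference was 0.54, with 0.47 in untreated cells and 0.57 after LPA, beside 0.014 over all genes. The list was chosen with earlier results of these arrays known, so its direction is not independent evidence. Called members numbered 18 higher and 1 lower after median centring and 21 or 22 higher under quantile normalization or cyclic loess. There were 3 and 11 without untreated replicate 1 or 2, and 7 without either LPA array. No member was called without the intensity trend, and 6 were with all probe sets averaged.

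Glucose transporters, metabolic switches and mitophagy receptors were among them. P4HA1, the catalytic subunit of collagen prolyl 4-hydroxylase, read 2441 and 2776 in number 1 and 4177 and 4837 in number 2, with no overlap (0.79 ± 0.11, limma adjusted p = 1.32e-05). A P4HA1 probe set below the filter went the other way. The remaining genes of this paragraph and the next were picked from the list after their values were seen. BNIP3, a mitophagy receptor, read 8055 and 8949 against 12908 and 14275, the brightest of those named here, with every number 2 value above every number 1 value (0.68 ± 0.13, limma adjusted p = 9.20e-04). VEGFA, the vascular growth factor, read 1622 and 1859 against 2558 and 3176 (0.71 ± 0.11, limma adjusted p = 7.42e-05), and its other probe sets gave 0.45, 0.51 and -0.04. TMEM45A, a transmembrane protein, read 1387 and 1735 against 2618 and 2708, so that the numbers again did not overlap (0.78, limma adjusted p = 4.18e-05).

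The glucose transporters SLC2A1 (567 and 609.8 against 925 and 909.8, difference 0.64) and SLC2A3 (323 and 371 against 651 and 604, difference 0.86) were both called. PDK1, the kinase that keeps pyruvate out of mitochondria, rose from 2613 to 3679 between the untreated arrays and from 2988 to 4889 between the LPA arrays (0.60, limma adjusted p = 4.81e-04). The peptide hormone ADM (198 and 157 against 359 and 348) and the sterol regulator INSIG2 (501 and 461 against 806 and 839) followed the same order, with differences of 1.00 and 0.77. Members that were not called included EGLN1 at -0.16, ERO1A, an oxidase of protein folding, at -0.31 and the carbonic anhydrase CA12 at -0.31. ERO1A was called lower after median centring (-0.38, limma adjusted p = 0.0475). For EGLN1, ERO1A and CA12 other probe sets above the filter lay nearer 0 or above it. They gave 0.05 and 0.45 for EGLN1, 0.01 and 0.05 for ERO1A, and -0.18 to 0.50 for CA12.

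**Figure D3:**
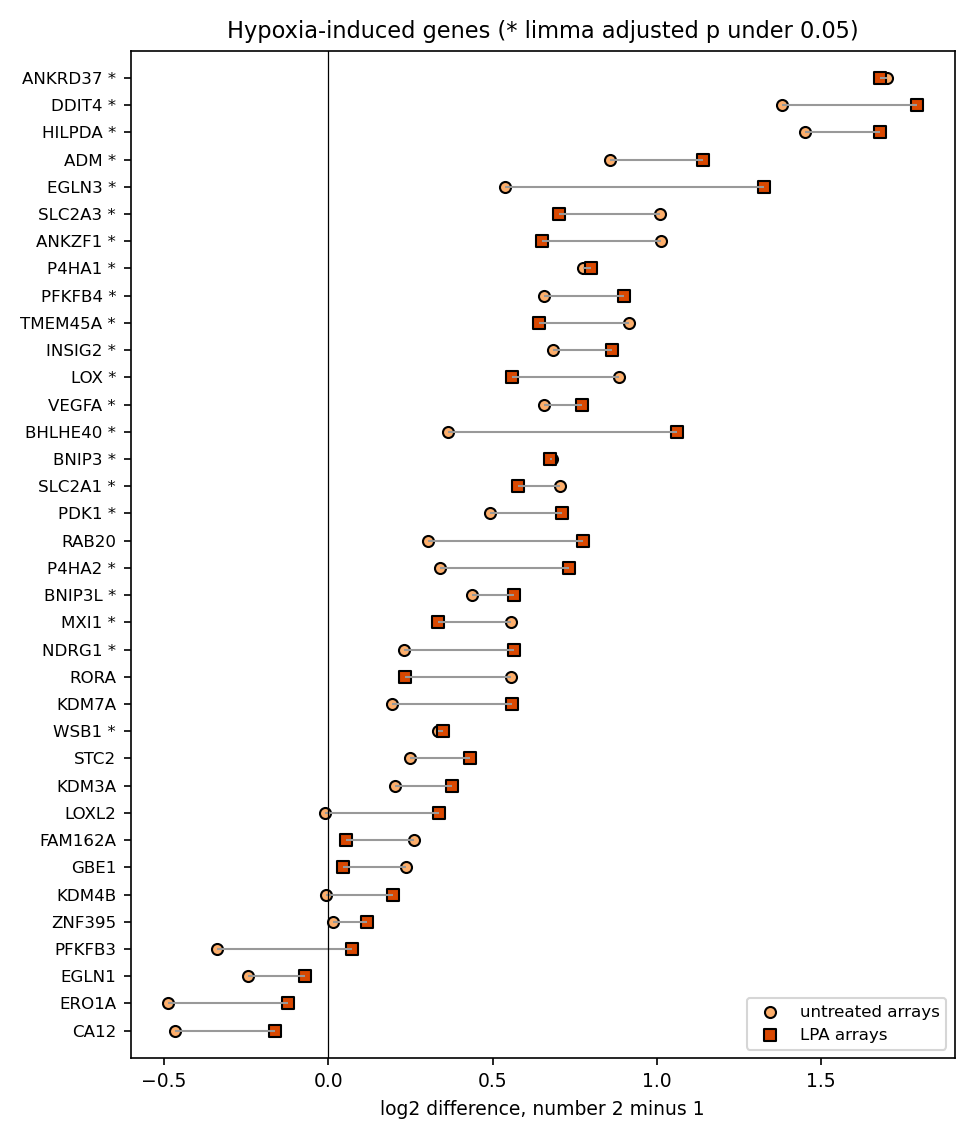
Log2 difference between number 2 and number 1 for the 36 hypoxia-induced genes tested, with a circle for untreated arrays and a square for LPA arrays, ordered by the difference over both treatments. An asterisk marks the 22 called genes, and ANKRD37, DDIT4 and HILPDA are at the top, at 1.38 to 1.79, with the LPA point of EGLN3 close below at 1.33.

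Upstream of these genes, no transcript of a HIF subunit was called (HIF1A, EPAS1 and ARNT). HIF1A, the oxygen-regulated subunit, read 8992 and 9881 in number 1 and 9638 and 9349 in number 2, fully overlapping (0.01 ± 0.13, limma adjusted p = 0.975), with a negative sign after median centring (-0.062). Its regulation by oxygen is through protein degradation, which an array does not measure. EPAS1 (HIF-2 alpha) was at -0.02 and its partner ARNT at 0.31 ± 0.19 (limma adjusted p = 0.339). Other ARNT probe sets above the filter gave -0.425, 0.648 and 0.996. VHL, which marks HIF for degradation, was at -0.12, with opposite directions in the 2 treatments. Of 9 HIF regulators tested, 2 were called higher (5.79% of all genes) and 1 lower (5.86%). Without LPA replicate 1, without untreated replicate 2 or without the treatment block 1 was called higher and 0 lower, and without either other array 0 were called by limma. CITED2, a HIF-induced competitor for the coactivator p300, read 321 and 409 against 691 and 808 without overlap (1.04 ± 0.20, limma adjusted p = 8.67e-04). The prolyl hydroxylase EGLN3, itself a HIF target, read 229 and 193 against 333 and 486 (0.93). HIF1AN, the asparaginyl hydroxylase that blocks HIF activity, was lower: 709.6 and 582 against 362 and 458, a difference of -0.66 ± 0.21 (limma adjusted p = 0.0402). CITED2 was the single member of that list called higher after median centring, and HIF1AN was not called under quantile normalization.

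The glycolytic genes had a median near that of all genes (0.014). Of 24 tested genes of glycolysis and lactate handling, 5 were called higher (5.79% of all genes) and 0 lower, and the median was 0.066. With 1 array left out the calls were 0 without untreated replicate 1, 2 higher and 3 lower without untreated replicate 2, 1 higher without LPA replicate 1 and 0 without LPA replicate 2. SLC2A1, SLC2A3 and PDK1 are also on the hypoxia list. The other two were the neuronal enolase ENO2 (238 and 263 against 384 and 660.2, difference 1.00) and PDP1, the phosphatase that reactivates pyruvate dehydrogenase (1524 and 1976 against 2621 and 2714, difference 0.62). GAPDH read 59949 and 60921 in number 1 and 63272 and 39259 in number 2, and LDHA 53879 and 56436 against 62754 and 42779. For both, LPA replicate 2, the array with the low maximum, was below the other 3, and the differences without it were 0.066 for GAPDH and 0.19 for LDHA against -0.28 and -0.09 with it. Without untreated replicate 2 both were called lower (-0.62 and -0.37, limma adjusted p = 1.41e-04 and 0.00414). Of the promoter windows of all listed hypoxia-induced genes, called or not, 22 of 39 (56.4%) held ACGTG. The shares were 22.3% for genes tested, 23.1% for genes called higher and 21.6% for genes called lower. GCGTG was present in 53.8%, 43.9%, 45.9% and 46.9% of these windows, in the same order. The list holds genes known to be induced by hypoxia, so its share describes the list and not the difference between the numbers.

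Targets of the integrated stress response had 20 of 24 differences above 0 (6114 of 11865 over all genes). Of 28 listed genes 24 were tested, 10 were called higher and 0 lower (5.79% of all genes were called higher). No overlap in that direction was seen for 17 of the 24, beside 26.5% of all genes. The median was 0.49, with 0.39 in untreated cells and 0.46 after LPA, and the members ranged from -0.28 to 2.01. DDIT4 and STC2 are shared with the hypoxia list. Called members numbered 8 after median centring, 5 with all probe sets averaged and 0 without the intensity trend. They numbered 3 and 6 without untreated replicate 1 or 2 (in the second case 1 was also called lower), and 7 and 6 without LPA replicate 1 or 2.

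CTH, which makes cysteine from cystathionine, was among the genes with the smallest limma p. Its signal was 3142 and 3562 in number 1 and 8234 and 7789.8 in number 2, a 2.39-fold difference (1.26 ± 0.11, limma adjusted p = 8.41e-09), and a second probe set gave 1.07. ASNS, asparagine synthetase, read 7254 and 7565 against 13962 and 12225, with no overlap (0.82 ± 0.13, limma adjusted p = 8.96e-05). TRIB3, a pseudokinase that feeds back on ATF4, read 714 and 737 against 1497 and 1296, about as far apart (0.94 ± 0.15, limma adjusted p = 5.76e-05). A dimmer TRIB3 probe set gave -0.02. The transcription factors of the pathway followed: DDIT3 (CHOP) read 1145 and 1359 against 1740.4 and 1808 (0.51 ± 0.12, limma adjusted p = 0.00702). CEBPB (0.68), ATF3 (0.57) and CEBPG (0.41), picked after their values were seen, were also called.

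ATF4, the transcription factor that drives these genes and is controlled mainly through translation, was not called. It read 44119 and 41079 in number 1 and 49421 and 31265 in number 2 (-0.12 ± 0.24, limma adjusted p = 0.837), with the low value on LPA replicate 2. Without that array the difference was 0.22 and under quantile normalization 0.018, while without untreated replicate 2 it was -0.45 and called lower (limma adjusted p = 0.00286). Of 11 eIF2 kinases and phosphatase subunits 0 were called by limma, where 11.6% of all genes were called. EIF2AK1, the haem-regulated kinase, had the smallest p of the 11 (0.25 ± 0.11, limma adjusted p = 0.143). Of 23 genes of the unfolded protein response, which shares ATF4 with this pathway, 0 were called by limma, beside 11.6% of all genes. The median of the 23 was -0.0040. There were 2 called lower after median centring, 2 higher under cyclic loess, 1 higher under quantile normalization and 1 higher without LPA replicate 2. The smallest p there belonged to SDF2L1, an endoplasmic reticulum protein, at -0.28 ± 0.11 (limma adjusted p = 0.118). In the windows before the start of all listed integrated stress response targets, called or not, TGATGNAA was present in 7 of 41 (17.1%). It was present in 1.68% for genes tested, 2.51% for genes called higher and 1.41% for genes called lower. The list holds known targets of the pathway, so its share describes the list and not the difference between the numbers.

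Genes of amino acid supply were mixed. SLC7A11, the cystine importer, was the single called gene of 15 amino acid transporters (11.6% of all genes were called). It read 1374 and 1531 in number 1 and 2717 and 2587 in number 2 (0.87 ± 0.12, limma adjusted p = 8.38e-06), and both of its other probe sets were higher too (1.07 and 1.17). SLC7A1, the importer of arginine and lysine, was at -0.31 ± 0.12 (limma adjusted p = 0.0845) and called lower after median centring (-0.38, limma adjusted p = 0.0156) and under quantile normalization (-0.31, 0.044). Of 17 aminoacyl-tRNA synthetases tested, LARS1 (0.45) and SARS1 (0.43) were called higher and WARS1 lower (2673 and 2160.4 against 1865 and 1668, difference -0.45). Over all genes 5.79% were called higher and 5.86% lower. With 1 array left out, 3 synthetases were called higher without LPA replicate 2, 1 without untreated replicate 2 and 0 without either number 1 array, with 0 lower in each. Of 15 serine and one-carbon enzymes, CTH, the folate enzyme ALDH1L2 (506 and 653 against 843 and 952) and SHMT2 (0.44) were called higher. Lower were MTR, methionine synthase (5286 and 4604 against 3641 and 3492, difference -0.47), and TYMS, thymidylate synthase (17188.5 and 16330.4 against 12351 and 9867, difference -0.60).

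The pair of genes best known as MondoA targets was higher in number 2, while the transcript of MondoA itself was lower. ARRDC4 read 1039.9 and 1544 against 2207 and 2376 (0.85 ± 0.13, limma adjusted p = 3.66e-05). MLXIP read 1429 and 979.6 against 785 and 628, with no overlap (-0.75 ± 0.15, limma adjusted p = 0.00123), and another probe set above the filter gave -0.86. Its partner MLX was higher (2035 and 2349 against 2994 and 3104, difference 0.48, limma adjusted p = 0.0045). KLF11, a zinc finger repressor, read 667 and 519 in number 1 and 199.6 and 154 in number 2, 1 of the widest falls of all genes (-1.74 ± 0.26, limma adjusted p = 4.83e-05). Of 11 genes tested in this list, 3 were called higher (5.79% of all genes) and 2 lower (5.86%), and the median was 0.049. The counts were 1 higher and 0 lower without untreated replicate 1, and 2 and 1 without untreated replicate 2. They were 2 and 2 without LPA replicate 1, and 1 and 1 without LPA replicate 2. For the carbohydrate response element, 3 of 835 windows of genes called higher held it (0.359%) and 0 of 853 of those called lower.

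Targets of FOXO factors and starvation, of which TXNIP is 1, went both ways. Of 21 tested, 5 were called higher (5.79% of all genes) and 3 lower (5.86%), with a median of 0.10. Without untreated replicate 1 the counts were 1 higher and 0 lower, and without untreated replicate 2 they were 3 and 1. Without LPA replicate 1 they were 3 and 3, and without LPA replicate 2 they were 3 and 0. GADD45A, a growth-arrest protein, read 3541 and 3483 against 6460.1 and 5575 (0.77 ± 0.11, limma adjusted p = 2.77e-05). SESN1, a leucine-sensing inhibitor of mTORC1, read 907 and 1123 against 1600.04 and 1772 (0.74 ± 0.13, limma adjusted p = 2.92e-04), and YPEL5 was at 0.64. The 3 lower genes, picked after their values were seen, were FOXO3 itself (4316 and 3247 against 2772 and 2329.9, difference -0.56), the insulin receptor substrate IRS2 (-0.63) and the cell cycle inhibitor CDKN1B (-0.63). A second IRS2 probe set gave 0.08.

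Regulators of mTORC1, the complex that links nutrients to growth, included 4 called higher (5.79% of all genes) and 1 lower (5.86%) of 22 tested, with a median of 0.12. With 1 array left out 1 or 2 were called higher (2 without LPA replicate 1 or untreated replicate 2), and 1 was called lower without LPA replicate 2 and 0 otherwise. DDIT4 and SESN1, which restrain the complex, and RRAGA, a GTPase that recruits it to lysosomes (0.39 ± 0.11, limma adjusted p = 0.0205), were higher. MTOR, its kinase, was lower (596 and 668 against 284 and 483, difference -0.77, limma adjusted p = 0.0198), although an MTOR probe set below the filter gave 1.43. The fourth higher gene, named after its values were seen, was DEPDC5, a subunit of an inhibitor of the amino acid branch (difference 1.40). Of 25 autophagy and lysosome genes, the protease ATG4A (0.70) and the ATG8 family member GABARAPL1 (0.62) were called higher (5.79% of all genes) and 0 lower. In that list 13 of the 25 were above 0 (6114 of 11865 over all genes).

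Targets of p53 included few negative differences: 17 of 20 had a positive difference (6114 of 11865 over all genes), 5 were called higher (5.79% of all genes) and 0 lower, and the median was 0.29. Under quantile normalization, cyclic loess or median centring, and without untreated replicate 2, 1 was called lower. GADD45A and SESN1 belong to this list too. TIGAR, a phosphatase that slows glycolysis, read 2824 and 3030.2 against 4328 and 4257 without overlap (0.55 ± 0.11, limma adjusted p = 0.001), and DDB2, a DNA damage sensor, read 526 and 553 against 809 and 909 (0.67). The number called higher was 0 and 3 without untreated replicate 1 or 2, and 2 without either LPA array.

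Among immediate early genes, which serum and LPA induce within minutes, most were not called. Of 24 tested, 4 were called higher (5.79% of all genes) and 1 lower (5.86%), with a median of 0.17. EGR1, a zinc finger transcription factor, read 837 untreated and 1366 after LPA in number 1, and 2127 and 2594 in number 2. The untreated value of number 2 was thus above the LPA value of number 1 (1.13 ± 0.13, limma adjusted p = 4.01e-07), and other EGR1 probe sets gave 1.07 and 1.14. DUSP1, the phosphatase that ends MAP kinase signalling, read 1335 and 2523 against 2681 and 2976, with the untreated arrays farther apart (1.01) than the LPA arrays. KLF6 was lower (2556 and 2573 against 1728 and 1908, difference -0.50). SRF, the factor that drives many of these genes, was lower as well (711 and 565 against 353 and 434, difference -0.69, limma adjusted p = 0.0329). It was the single called gene among 16 YAP, TAZ and SRF targets. Called immediate early genes numbered 0 and 1 higher without untreated replicate 1 or 2, and 4 and 0 higher without LPA replicate 1 or 2, with 0 lower in each of these limma fits.

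Genes of growth and division had more negative than positive differences. Of 27 ribosome biogenesis genes 21 had a negative difference (5751 of 11865 over all genes), the median was -0.19, and 2 were called lower (5.86% of all genes) and 1 higher (5.79%). The number called lower was 5 after median centring or cyclic loess, 4 under quantile normalization and 8 without untreated replicate 2, and it was 0 without either number 1 array. NOP16, a nucleolar protein, read 9108 and 9121 against 6628 and 4821 (-0.69 ± 0.13, limma adjusted p = 4.46e-04), and MRTO4, a ribosome assembly factor, read 3398 and 3318 against 2339 and 2309 (-0.53). UTP15, the gene called higher (0.44), had another probe set at -1.16. In the S phase list 18 of 24 were negative, 3 were called lower (5.86% of all genes) and 0 higher. The 3 were TYMS with MCM3 (7039.6 and 6556 against 4643 and 5761) and UHRF1 (7424 and 6596 against 4926 and 5771). Among 25 mitosis genes 17 were negative, 2 were called lower (5.86% of all genes) and 1 higher (5.79%). CCNA2, cyclin A2, was lower (6564 and 5943 against 4049 and 4684, difference -0.52), as was the spindle motor KIF11 (-0.35), while the centromere motor CENPE was higher (0.46). The S phase list had 5 called lower after median centring, 2 without untreated replicate 2 and 0 without either number 1 array, and the mitosis list 4 lower after median centring and, of its 3 calls, 1 without LPA replicate 2 and 0 without any other array. Oxidative phosphorylation had 0 called genes of 22 by limma and a median of -0.052, with 0.059 between the untreated arrays and -0.125 between the LPA arrays. UQCRC1, a subunit of complex III, had the smallest p (0.33 ± 0.11, limma adjusted p = 0.055). Without untreated replicate 2, 6 genes of that list were called lower, and under cyclic loess or the filter at the 60th percentile 2 were called higher.

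Of 20 tested genes of cholesterol and fatty acid synthesis 15 had a positive difference (6114 of 11865 over all genes). Of the 20, 4 were called higher (5.79% of all genes) and 0 lower, and the median was 0.18. After median centring 1 was called lower beside the 4 higher. DHCR7, the last enzyme of cholesterol synthesis, read 1167 and 1115 against 1933 and 1633 (0.64 ± 0.13, limma adjusted p = 9.91e-04). MSMO1 (0.46), SC5D (0.39) and IDI1 (0.44) act earlier in the pathway. Dimmer IDI1 probe sets gave 0.24, -0.34 and -0.63. Without 1 array the number called was 1 (without LPA replicate 2) or 0.

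Other stress programmes showed isolated genes. In the heat shock list 3 of 17 were called higher (5.79% of all genes), the cochaperone DNAJB1 (1181 and 1182 against 1718 and 2012, difference 0.65), CHORDC1 (0.43) and HSPA4L (0.41), and the median was 0.044. Without untreated replicate 2 there were 3 higher and 3 lower, 1 higher without LPA replicate 2, and 0 without either number 1 array. SLC7A11 was the single call among 17 targets of NRF2, the oxidative stress factor. Of 10 metallothionein and zinc genes, the zinc exporter SLC30A1 was higher (0.59) and MT1X lower (-0.44). Of 14 interferon response genes, IFIT5 (0.82) and IFIT1 (0.81) were higher and IFI35 lower (-1.62, with both number 2 values below the filter signal of 70.5). The counts of the NRF2, zinc and interferon lists stand beside 5.79% of all genes called higher and 5.86% lower. In the plot of list medians the hypoxia-induced genes have the highest median under both treatments. Immediate early genes (0.42) come next between the untreated arrays, ahead of the integrated stress response targets.

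**Figure D4:**
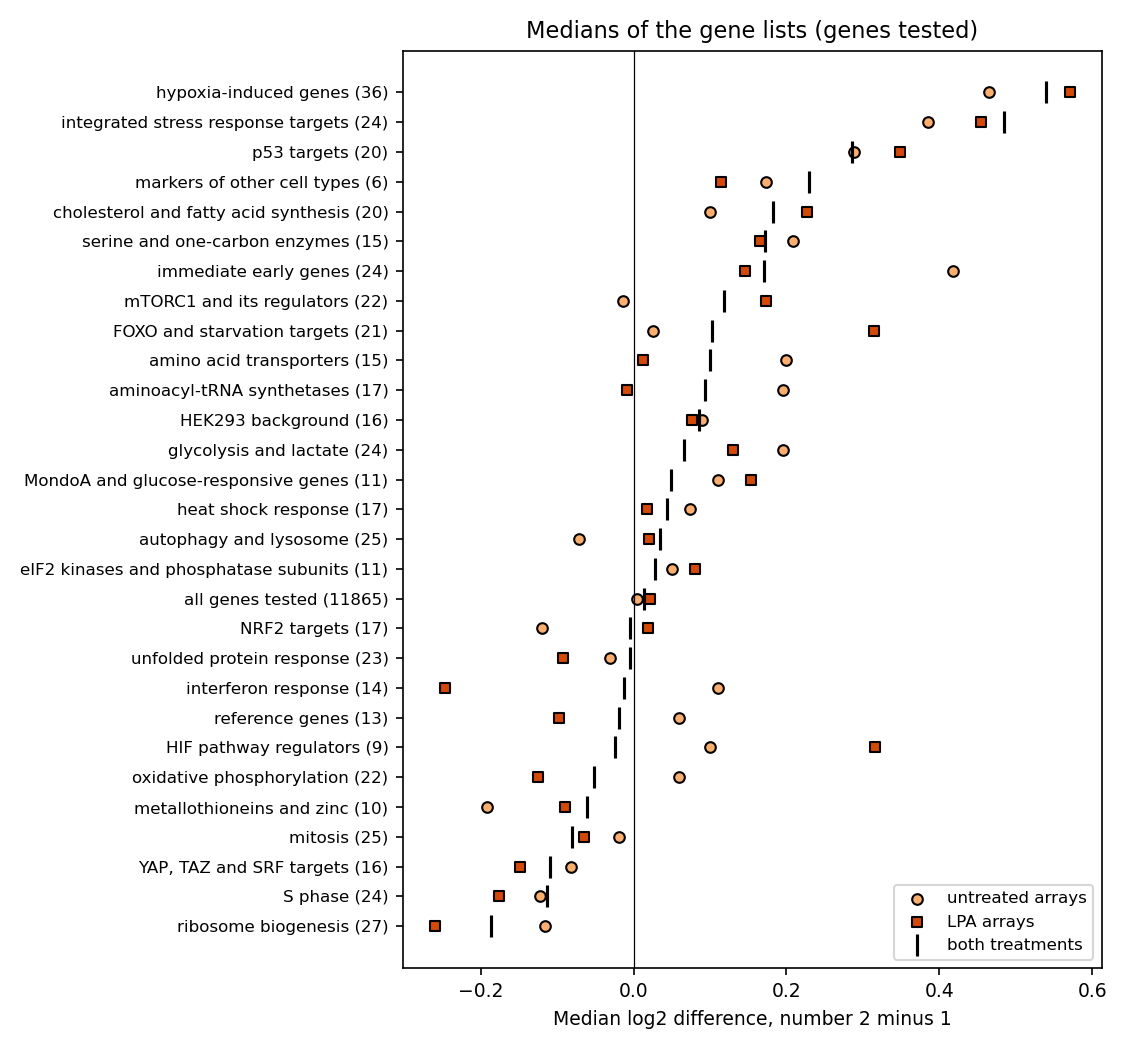
Median log2 difference between number 2 and number 1 of each gene list, with a circle for untreated arrays, a square for LPA arrays and a bar for both, and the number of genes tested in brackets. The hypoxia-induced genes lie at 0.47 and 0.57, the integrated stress response targets at 0.39 and 0.46, and the immediate early genes at 0.42 between the untreated arrays.

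Markers of the cell line and of other cell types were checked on all arrays. Of 16 genes tested from the HEK293 background list, NEFL, the neurofilament light chain that this line is known to express, was the single call (2079 and 2490 against 2527 and 3337, difference 0.35). The summed signal of that list was 44672 and 42172 in number 1 and 48057 and 39645 in number 2, and 16 of 18 measured genes were above the filter signal on all arrays. Of 24 measured markers of blood, liver, fibroblast, endothelial, epithelial and other cell types, 10 were below the filter signal on every array and 4 were above it on all. Their summed signal was 2602 and 2387 against 2816 and 2718, and 0 of the 6 tested were called by limma. COL1A1, a fibroblast collagen, had the smallest p of them and was at 0.25 ± 0.15 (limma adjusted p = 0.325). Of 13 reference genes, POLR2A, the large subunit of RNA polymerase II, was called lower (920 and 820 against 589 and 534, difference -0.63). Over all genes 5.79% were called higher and 5.86% lower.

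The widest differences of all fell mostly on dim genes. The rule for the largest differences named SNCB, a synuclein, first (10.4 and 92.7 against 210 and 134, difference 2.37 ± 0.64, limma adjusted p = 0.0147), and 1 of its values lay below the filter signal. CAPN12, TMPRSS6 and TSNARE1 followed with values below the filter signal as well. RPA4, a form of replication protein A (94.8 and 80.2 against 318 and 349, difference 1.92), and TMEM79 (85.0 and 128 against 311 and 418, difference 1.78) were above it on all arrays. Among lower genes SLC30A3, a zinc transporter, led (95.7 and 262 against 13.9 and 120, difference -1.91) with overlapping numbers. HIPK2, a kinase of the DNA damage response, read 2707 and 1783 against 590.1 and 979.7 (-1.53 ± 0.18, limma adjusted p = 6.68e-07), though its other probe sets above the filter differed less (-0.23 to -0.65). UQCC3, an assembly factor of respiratory complex III, read 1036 and 751 against 319 and 268 with no overlap (-1.59 ± 0.21, limma adjusted p = 5.59e-06).

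The differences with the smallest limma p, picked after the values were seen, included genes outside the lists. TCEAL1, a nuclear regulator of transcription, read 2537 and 2327 against 5611 and 6159 (1.27 ± 0.11). C11orf54 read 1115 and 1477 against 3469 and 3162 (1.37 ± 0.12). CXCR4, a chemokine receptor that hypoxia is known to induce, read 399 and 563 against 1125 and 1547, with other probe sets at 1.34 and 1.60 (1.47 ± 0.16, limma adjusted p = 3.15e-07). Each of these was at least 2-fold higher in both treatments. On the lower side COQ3, a methyltransferase of ubiquinone synthesis, read 3833 and 3796 against 1742 and 1462 (-1.26 ± 0.11, limma adjusted p = 8.41e-09). MRPL54 and MRPS26, both proteins of the mitochondrial ribosome, were at -1.21 and -1.17, and the transcriptional repressor ZNF703 at -1.15.

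Of the 102 genes examined under the alternatives, 90 were called as reported. Of these 83 were still called under quantile normalization, 89 under cyclic loess, 81 after median centring and 48 without the treatment block. With 1 array left out, 15 and 44 were called without untreated replicate 1 or 2, and 41 and 40 without LPA replicate 1 or 2, and 0 of the 90 turned sign in those fits. With all probe sets averaged 28 remained and 6 turned sign.

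**Figure D5:**
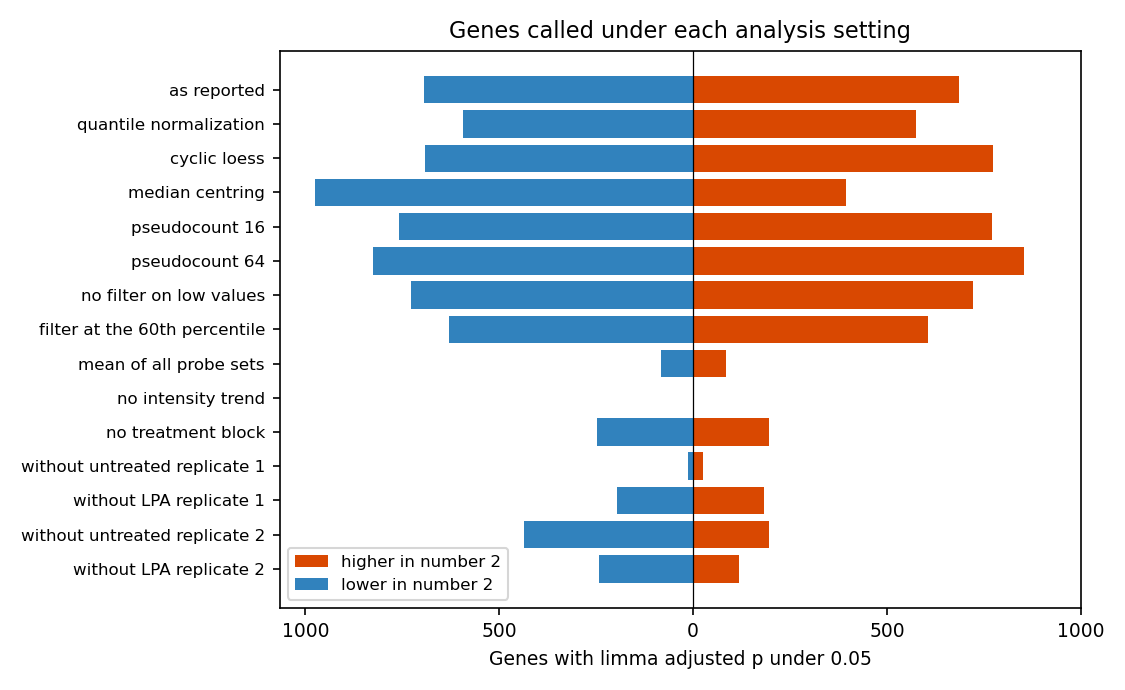
Number of genes called higher (to the right) and lower (to the left) in number 2 under each analysis setting. The reported setting gives 687 and 695, median centring 395 and 975, and the fit without an intensity trend 0 in either direction.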

How the data were processed

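RNA of 4 HEK293 samples was measured on Affymetrix arrays, 2 carrying replicate number 1 and 2 number 2, each number holding 1 untreated and 1 LPA array. Each deposited table gives 1 linear intensity for every probe set, which the authors computed with MAS5 according to the submitters' processing notes. Its version is not given in the sources used here. The labelling protocol named in the labels is for whole transcripts, while the probe sets are those of a 3′ array. Of 54675 probe sets, 41097 had 1 gene symbol, 1801 several and 11777 none. The brightest probe set with 1 symbol stood for each of 19775 genes, and 11865 genes above the 40th percentile of mean log2 signal (a signal of 70.5) were tested.

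Values were taken as log2(signal + 1), so a fold understates differences of dim genes. Replicate number 2 was compared with number 1 in limma 3.58.1 (R 4.3.3) with treatment as a block (lmFit, eBayes with an intensity trend, two-sided, Benjamini-Hochberg adjustment over all genes). The fit had 1 residual degree of freedom among arrays and 29.43 prior degrees of freedom borrowed across genes. The number of arrays limits the precision, and log2 differences had a median SE of 0.18. Motifs were counted in the 250 bases before the start in the RefSeq promoter table (GRCh38.p14).

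The named genes are the 5 marker genes, the 12 largest differences in each direction (the text gives some of them), up to 4 members per list by smallest p, and HIF1A, ARNT, VHL, ATF4, DDIT3, MLXIP and MLX. Genes outside that rule were picked after their values were seen, which the report says beside most of them and which also holds for SHMT2, EPAS1, EGLN1, ERO1A and CA12. The marker genes and all lists were chosen with earlier results of these data known. The lists are those described in the report, and 0 of 4 tested small nucleolar RNA host genes were called by limma (the smallest adjusted p was 0.165, for GAS5). Over all genes 11.6% were called.

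The alternatives were quantile, cyclic loess and median scaling, pseudocounts of 16 and 64, no filter or one at the 60th percentile, averaging a gene's probe sets, dropping the intensity trend, dropping the treatment block, and leaving out each array.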

Additional observations from a re-analysis of the deposited data

Results flagged for a closer look

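For some results the difference between replicate numbers had opposite signs in untreated cells and after LPA. The difference between the treatments was not tested in any of them, because the design leaves no residual degree of freedom for it. As the LPA pair minus the untreated pair, on the log2 scale, the list medians differed by -0.203 for aminoacyl-tRNA synthetases, 0.139 for NRF2 targets, 0.091 for autophagy and lysosome genes and 0.187 for mTORC1 and its regulators. They differed by -0.184 for oxidative phosphorylation, -0.358 for the interferon response and -0.156 for reference genes. Among the genes named, the same quantity was -0.18 for HIF1A, 1.012 for VHL, -0.249 for EPAS1, -0.712 for GAPDH, -0.62 for LDHA and -0.558 for ATF4. GAPDH, LDHA and ATF4 had their lowest signal on LPA replicate 2, the array with the lowest maximum.

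Some probe sets to which the annotation gives no gene symbol, and which the gene comparison did not use, were called as well. Of 3233 such probe sets above the filter signal, 142 were called by limma, 54 higher and 88 lower in number 2. The share was larger over all genes tested, where 11.6% were called (5.79% higher and 5.86% lower). The probe set with the smallest p read 10780 and 6282 in number 1 against 1867 and 1877 in number 2, a log2 difference of -2.14 (limma adjusted p = 3.13e-28).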

How the results depend on the processing

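The count of 1382 called genes became 168 with the mean of all probe sets, 0 without the intensity trend, 445 without the treatment block and 39 to 631 with 1 array left out. Scaling, pseudocount and filter alternatives gave 1170 to 1679. Called hypoxia-induced genes went from 22 to 6, 0 and 10 in the first 3 of these settings and to 3 to 11 with 1 array left out. Called integrated stress response targets went from 10 to 5, 0 and 6, and to 3 to 7. The hypoxia median was 0.397 to 0.644 with 1 array left out. The integrated stress median was 0.413 after median centring, 0.424 with a pseudocount of 64, 0.36 with the mean of all probe sets, 0.385 in the untreated pair and 0.405 to 0.484 with 1 array left out.

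With the mean of all probe sets the sign turned for P4HA1 (-1.293), EGLN1 (0.123), MLXIP (0.305), SLC7A1 (0.278), MTOR (0.333), SC5D (-0.097), IDI1 (-0.072) and UTP15 (-0.358); this setting adds probe sets below the filter. HIF1A turned to -0.062 after median centring and ranged from -0.058 to 0.078 with 1 array left out. Such ranges were -0.64 to 0.397 for VHL, -0.126 to 0.077 for EPAS1, -0.622 to 0.066 for GAPDH, -0.366 to 0.187 for LDHA and -0.445 to 0.215 for ATF4; the positive value was without untreated replicate 2 for VHL and without LPA replicate 2 for the last 4. Under quantile normalization LDHA gave 0.096 and ATF4 0.018. The cause was not tested.

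For LPA against untreated arrays, the replicate block gave 32 called genes, or 4 with quantile normalization too, against 0 without the block, and leaving out 1 array gave 0 to 3. The labels do not say that equal numbers are paired, and with 2 numbers the pairing cannot be shown from the data. The fit has 1 residual degree of freedom, so its p-values rest on the variance shared across genes. Signals near 70.5 are not shown to be above background.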

Other observations

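Some gene families outside the lists were counted after the results had been seen, so their counts are descriptions. Proteins of the mitochondrial ribosome, which translates the mitochondrial genome, had 12 genes called lower and 1 higher in number 2 of 75 tested, with a median log2 difference of -0.025, so the calls fell on a minority of the family. COQ genes, which make ubiquinone, had 3 of 11 called lower and 0 higher. The KDM histone demethylases had 3 of 16 called lower and 0 higher, and the ARID chromatin remodelling genes 2 of 7 and 0. Over all genes 5.86% were called lower. Genes of respiratory complex I (NDUF) had 0 of 41 called by limma.

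Solute carriers had 14 called higher and 6 lower of 215 tested, and ZNF zinc finger genes 10 higher and 21 lower of 343. Over all genes 5.79% were called higher and 5.86% lower. Proteins of the cytosolic ribosome had 54 of 59 differences below 0 (5751 of 11865 over all genes) and 0 called by limma, with a median of -0.19. That median was 0.099 between the untreated arrays and -0.47 between the LPA arrays, where the array with the low maximum signal lies.

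Of the other differences with the smallest limma p, GPANK1 and EOLA1 were higher in number 2 (1.17 and 1.03). DLG5, ANKRD40, ADI1, MTMR1 and KCTD12 were lower (-1.20, -1.18, -0.99, -1.12 and -0.96). ADI1 acts in the salvage of methionine, and DLG5 is a scaffold protein of cell polarity.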
